A study of Mus musculus with 22 samples.

Results

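The translation initiation factors are the genes whose products place the ribosome on the start codon of an mRNA. They were taken here as all symbols in the gene table that begin with Eif, without the sex-linked pair Eif2s3x and Eif2s3y, which gave 52 of 14407 symbols. Membership follows from the name and not from the values. The rule, the role groups and the lists of other pathway genes were drawn up with earlier results of these data known. They were described in single germinal center B cells from the spleens of immunized mice, across libraries, cell classes, isotypes and clone sizes.

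In initiation, a ternary complex of eIF2, GTP and the initiator methionyl tRNA joins the small ribosomal subunit together with eIF1, eIF1A, eIF3 and eIF5, and the eIF4 factors bring that subunit to the capped end of the mRNA and unwind its leader. Stress kinases phosphorylate eIF2 and thereby block its exchange factor eIF2B, whereas 4E-BP proteins sequester the cap-binding factor eIF4E. In the germinal center, B cells that receive help from T cells switch on Myc and enter cell growth and rounds of division, and MYC is known to act on genes of the translation machinery.

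The mice were C57BL/6 males aged 8 weeks, injected intraperitoneally with 100 µg of NP(23)-KLH, a hapten on a carrier protein, or with the same mass of ovalbumin (OVA). Both antigens were given in 50% alum with 1 µg of lipopolysaccharide, so every group carries this adjuvant and there is no unimmunized group. Libraries NP 1 and NP 2 held NP-binding germinal center B cells sorted on day 13. Library OVA 1 held germinal center B cells regardless of antigen binding, and its sort day is not stated in the labels. No label says that the libraries came from separate animals, so p-values reflect the spread among these 3 libraries alone, which may be technical.

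Cells were kept if they showed 500 or more genes and if mitochondrial transcripts made up no more than 10%, which left 2600, 1756 and 2385 cells in NP 1, NP 2 and OVA 1, with medians of 5892, 8049.5 and 7443 unique molecular identifiers (UMIs, counts of single transcripts) per cell. All 7 germinal center B cell markers were detected in each library. Of 8842 cell barcodes, 31 occurred in more than 1 library, which touched 47 of the cells kept. For single genes, CPM means UMIs per 1e6 UMIs outside the 226 immunoglobulin genes. For sums of cell type markers, CPM means UMIs per 1e6 of all UMIs, immunoglobulin included. Myeloid markers summed to 29.3 and 775 CPM in NP 1 and NP 2, and to 1569 CPM in OVA 1. Results were therefore also computed without cells carrying markers of other types. For the cell classes each cell was thinned at random to 2500 UMIs, which kept 2338, 1602 and 2154 cells and put all classes at the same depth.

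Promoter sequences of 4 members are given first, because their genes recur below. The motif CACGTG, an E-box that the MYC and MAX pair is known to bind, is its own reverse complement and was searched in windows of 300 bases around RefSeq transcript starts, on the assembly GRCm38.p6 that underlies mm10. It was found in 12 of the 54 windows of 41 members (22.2%), against 2349 of 32851 windows of all genes (7.15%) and 1292 of 13210 windows of genes in the table (9.78%). Per gene, 10 of the 41 members had it in any window (24.4%), against 1199 of 10403 genes in the table (11.5%). Windows of the same gene overlap, and a match is a description of letters, not of binding. The 250 bases before the start follow, 5′ to 3′, with the motif in capitals.
Eif4a1, chr11:69672424-69672673, minus strand: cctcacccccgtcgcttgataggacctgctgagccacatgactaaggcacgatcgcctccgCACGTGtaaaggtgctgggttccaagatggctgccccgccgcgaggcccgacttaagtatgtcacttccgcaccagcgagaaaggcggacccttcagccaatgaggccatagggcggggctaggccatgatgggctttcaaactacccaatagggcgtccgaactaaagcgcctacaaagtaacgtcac
Eif5a, chr11:69920631-69920880, minus strand: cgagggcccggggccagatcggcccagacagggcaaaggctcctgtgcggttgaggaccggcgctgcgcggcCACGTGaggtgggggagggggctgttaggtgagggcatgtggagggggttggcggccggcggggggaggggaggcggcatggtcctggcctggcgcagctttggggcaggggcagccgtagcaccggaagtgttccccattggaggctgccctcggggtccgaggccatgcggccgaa
Eif4e, chr3:138527018-138527267, plus strand: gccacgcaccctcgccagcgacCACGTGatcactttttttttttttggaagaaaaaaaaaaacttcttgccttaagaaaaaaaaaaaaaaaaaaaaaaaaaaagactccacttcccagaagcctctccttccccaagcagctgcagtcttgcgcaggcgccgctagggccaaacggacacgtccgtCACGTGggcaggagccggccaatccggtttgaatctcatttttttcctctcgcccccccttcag
Eif2ak3, chr6:70844265-70844514, plus strand: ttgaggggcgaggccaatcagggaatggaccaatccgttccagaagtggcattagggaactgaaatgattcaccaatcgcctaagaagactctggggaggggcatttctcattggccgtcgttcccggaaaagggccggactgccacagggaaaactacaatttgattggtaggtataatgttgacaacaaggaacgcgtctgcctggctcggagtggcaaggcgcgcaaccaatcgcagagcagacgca
In Eif4a1, the RNA helicase of the cap complex, the motif begins 189 bases before the start, and in the Eif5a window shown it begins 178 bases before. In Eif4e, the cap-binding protein, it occurs at 228 and 64 bases before the start shown. For genes with more than 1 window, the one printed was chosen because it holds the motif. Eif5a has 6 windows and Eif4e has 2. Their windows at the start of the gene span, chr11:69921909-69922208 and chr3:138525941-138526240, hold no CACGTG. On the same assembly the Eif4a1 gene spans chr11:69666936-69672423, Eif5a chr11:69916712-69921958, Eif2ak3 chr6:70844484-70905241, Eif1ax chrX:159372178-159389621, Eif3f chr7:108934415-108941942 and Eif4e3 chr6:99621879-99692873. Eif5a overlaps Gps2, Eif1ad overlaps Banf1 and Eif2a overlaps Serp1. Likewise Eif4a2 overlaps Rfc4, Eif5b Rev1, Eif3j1 Spg11 and Eif4enif1 Sfi1, and some members not called below also overlap other genes. Whether counting used the strand is not stated, so the levels of all these members carry that uncertainty. The window of Eif2ak3, which encodes the endoplasmic reticulum stress kinase PERK, holds no CACGTG.

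Together the 52 genes took a similar share of transcripts in every library, 1.14% and 1.18% in NP 1 and NP 2, and 1.15% in OVA 1. The share was larger in dividing cells. Mitotic cells, those with at least 3 thinned UMIs over 12 mitotic genes such as Ccnb1 and Plk1, gave 1.15%, 1.22% and 1.18% in NP 1, NP 2 and OVA 1, against 1.03%, 1.06% and 1.04% in noncycling cells, which lacked any UMI of these genes, Mki67, Top2a and Mcm5. Nonmitotic cells with at least 1 UMI of the replication licensing gene Mcm5, an S phase marker, gave 1.10%, 1.16% and 1.14%. Each of these values in cycling cells lay above all 3 noncycling values. Myc-positive cells, with at least 1 thinned Myc UMI, gave 1.18%, 1.21% and 1.08%, against 1.09%, 1.14% and 1.10% in Myc-undetected cells, and were thus the larger in the 2 NP libraries only. Noncycling cells with at least 2 Cd83 UMIs, Cd83 being an activation marker of light zone cells, gave 1.04%, 1.08% and 1.05%, against 1.02%, 1.05% and 1.03% in other noncycling cells, which overlap.

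**Figure D1:**
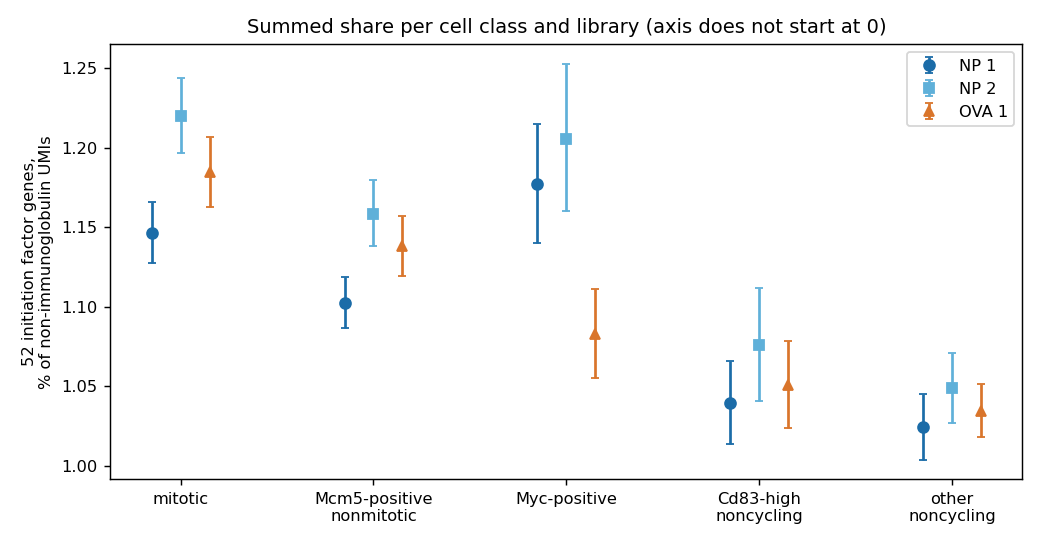
Summed UMIs of the 52 initiation factor genes as a percent of non-immunoglobulin UMIs (vertical axis, not starting at 0) for 5 cell classes and 3 libraries, with exact 95% Poisson intervals that cover counting error only. The mitotic values lie between 1.15% and 1.22%, the other noncycling values between 1.02% and 1.05%, and Myc-positive cells of OVA 1 at 1.08%.

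Single factors differed in both directions, and more were higher than lower in each cycling class. The Mcm5-positive class held 673, 422 and 496 cells in NP 1, NP 2 and OVA 1 and the mitotic class 490, 344 and 389, against 614, 473 and 802 noncycling cells. UMIs were summed per library and class and tested with edgeR's quasi-likelihood test with the library as a block, and adjusted p-values cover all genes. Of 49 members with enough counts, 19 were higher and 5 lower in mitotic cells, with a background of 20.7% higher and 19.8% lower (40.5% in either direction) among all 7939 genes tested. In Mcm5-positive cells 21 were higher and 2 lower, with a background of 17.3% higher and 13.8% lower (31.1% in either direction) among 8187 genes. The median log2 fold change of the members was 0.19 in mitotic and 0.23 in Mcm5-positive cells, and that of all genes was 0.00 and -0.02. The 2 comparisons share their noncycling cells and are given side by side for that reason. Before thinning, median UMIs per cell were 8423, 11153 and 11307 in mitotic and 7586, 10484.5 and 10462.5 in Mcm5-positive cells, against 5086.5, 6481 and 6613.5 in noncycling cells.

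**Figure D2:**
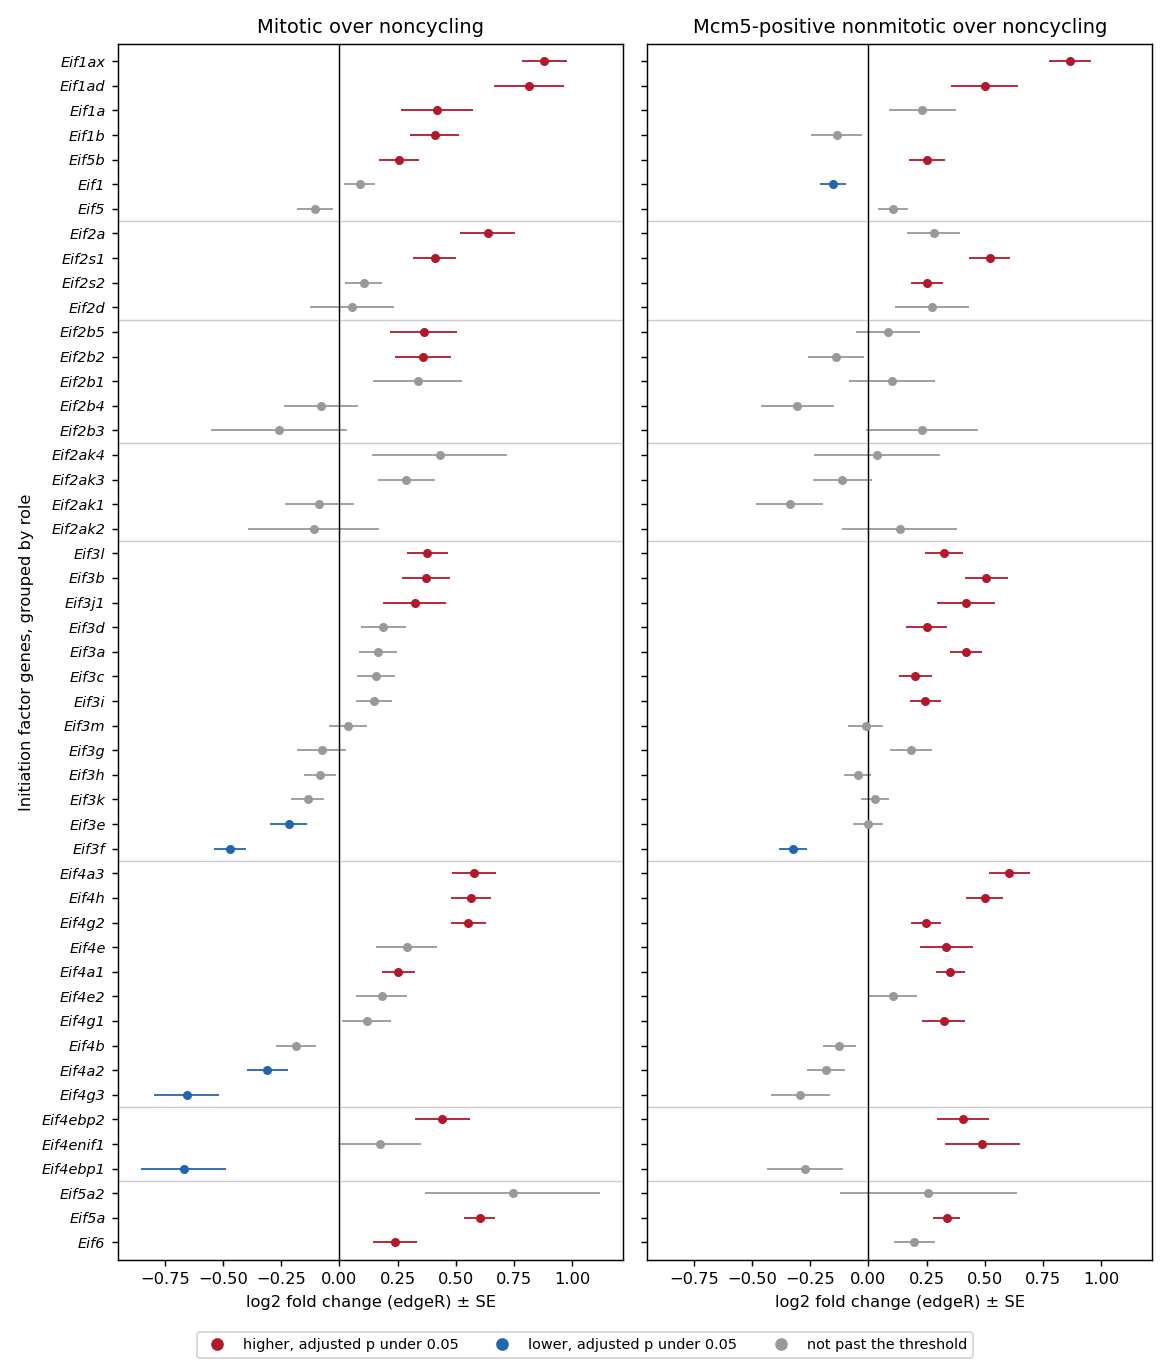
Log2 fold change with its standard error for each initiation factor gene tested in mitotic (left) and Mcm5-positive nonmitotic cells (right) over noncycling cells, grouped by role, in 3 libraries. Eif1ax is far to the right in both panels (0.88 and 0.87), and Eif3f (-0.47 and -0.33) lies to the left in both.

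Among the factors for scanning and start choice, 5 of 7 were higher in mitotic cells and 3 of 7 in Mcm5-positive cells. The background over all genes was 20.7% higher in mitotic and 17.3% higher in Mcm5-positive cells. Eif1ax, an X-linked gene for eIF1A, stood at 208, 190 and 169 CPM in mitotic and 188, 197 and 164 CPM in Mcm5-positive cells, against 108, 98.6 and 86.5 CPM in noncycling cells of NP 1, NP 2 and OVA 1. No library of either cycling class came near the noncycling values, and the log2 fold changes were 0.88 ± 0.10 (SE, adjusted p = 1.66e-10) and 0.87 ± 0.09 (adjusted p = 1.1e-09). Eif1ad, which carries an eIF1A-like domain, had log2 fold changes of 0.82 ± 0.15 in mitotic and 0.50 ± 0.14 in Mcm5-positive cells. Eif5b, the GTPase of subunit joining, rose by 0.26 ± 0.09 and 0.25 ± 0.08. Eif1a (0.42 ± 0.15) and Eif1b (0.41 ± 0.11) were higher in mitotic cells, and in Mcm5-positive cells their values of 0.23 and -0.14 did not pass the test. Eif1, which guards start codon choice, was lower in Mcm5-positive cells by a small amount (-0.15 ± 0.06, overlapping levels) and stood at 0.09 ± 0.07 in mitotic cells without passing. Eif5, which triggers GTP hydrolysis on eIF2, passed in neither class (-0.10 and 0.11). Eif1a and Eif1ax have near-identical protein products, so their counts are uncertain where reads match both.

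For delivery of the initiator tRNA, the alpha subunit of eIF2, Eif2s1, was higher in both classes. It stood at 175, 192 and 203 CPM in mitotic cells and 174, 228 and 204 CPM in Mcm5-positive cells, against 137, 123 and 144 CPM in noncycling cells. Every cycling value exceeded every noncycling value, and the log2 fold changes were 0.41 ± 0.09 (adjusted p = 0.000294) and 0.52 ± 0.09 (adjusted p = 1.48e-05). The beta subunit Eif2s2 was higher in Mcm5-positive cells (0.25 ± 0.07) and did not pass in mitotic cells (0.10 ± 0.08). Eif2a, a separate factor that can bring the tRNA without eIF2, was higher in mitotic cells (0.64 ± 0.12) and had 0.28 ± 0.11 (not called) in Mcm5-positive cells. Of the 5 subunits of the exchange factor eIF2B, Eif2b2 (0.36 ± 0.12) and the catalytic subunit Eif2b5 (0.36 ± 0.14) were higher in mitotic cells and none of the 5 passed in Mcm5-positive cells. None of the 4 eIF2 kinases passed in either class; Eif2ak3 had 0.29 ± 0.12 and -0.11 ± 0.13, and the amino acid sensor Eif2ak4 had 0.43 ± 0.29 and 0.04 ± 0.27.

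Subunits of the large eIF3 complex were called in both directions. In Mcm5-positive cells 7 of 13 tested subunits were higher and 1 lower, with a background of 17.3% higher and 13.8% lower. In mitotic cells 3 were higher and 2 lower, with a background of 20.7% higher and 19.8% lower. The mitotic counts are thus near the rate of all genes. Eif3b, part of the core, rose by 0.37 ± 0.10 in mitotic and 0.51 ± 0.09 in Mcm5-positive cells, and Eif3l by 0.38 ± 0.09 and 0.33 ± 0.08. Eif3a, the scaffold subunit, was higher in Mcm5-positive cells (0.42 ± 0.07) and did not pass in mitotic cells (0.16 ± 0.08), and Eif3c (0.20 ± 0.07) and Eif3d (0.25 ± 0.09) passed in Mcm5-positive cells, with 0.16 and 0.19 in mitotic cells, not called. Eif3f, a subunit with a deubiquitinase-like fold, ran the other way. It stood at 784, 971 and 918 CPM in mitotic and 888, 1062 and 921 CPM in Mcm5-positive cells, against 1041, 1225 and 1242 CPM in noncycling cells. It was lower within each library in both classes, with groups that overlap only for Mcm5-positive cells, and its log2 fold changes were -0.47 ± 0.07 (adjusted p = 1.14e-07) and -0.33 ± 0.06 (adjusted p = 4.77e-05). Eif3j1 was higher in both classes (0.32 ± 0.13 and 0.42 ± 0.13), yet NP 2 had only 47.2 CPM in mitotic and 42.3 CPM in Mcm5-positive cells against 41.2 CPM in noncycling cells, and its near-identical copy Eif3j2 had too few UMIs for a test. Outside the naming rule, and chosen after their values were seen, Eif3i was higher in Mcm5-positive cells (0.24 ± 0.07) and Eif3e lower in mitotic cells (-0.22 ± 0.08).

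In the cap complex the helicase Eif4a1, its cofactor Eif4h and the helicase paralog Eif4a3, which sits in the exon junction complex, were higher in both classes. Eif4a3 stood at 189, 182 and 174 CPM in mitotic and 168, 211 and 168 CPM in Mcm5-positive cells, against 115, 116 and 115 CPM in noncycling cells, with log2 fold changes of 0.58 ± 0.10 and 0.61 ± 0.09. Eif4h gave 0.57 ± 0.09 and 0.50 ± 0.08, and Eif4a1 0.25 ± 0.07 and 0.35 ± 0.06. Eif4a2, the second cytoplasmic helicase, was lower in mitotic cells (-0.31 ± 0.09) and did not pass in Mcm5-positive cells (-0.18 ± 0.08). The scaffolds differed among themselves. Eif4g2, which lacks the eIF4E site, stood at 496, 401 and 344 CPM in mitotic and 405, 303 and 267 CPM in Mcm5-positive cells, against 347, 236 and 220 CPM in noncycling cells; it was highest in NP 1 in all 3 classes, so that the groups overlap, and it was higher by 0.55 ± 0.07 and 0.25 ± 0.07. The scaffold Eif4g3 was lower in mitotic cells (-0.66 ± 0.14) and had -0.29 ± 0.13 in Mcm5-positive cells without passing, whereas Eif4g1 was higher in Mcm5-positive cells (0.32 ± 0.09) and had 0.12 ± 0.10 in mitotic cells. Eif4e was higher in Mcm5-positive cells (0.33 ± 0.11) and missed the threshold in mitotic cells (0.29 ± 0.13), and Eif4b, a helicase cofactor, passed in neither (-0.19 and -0.12).

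The 4E-BP inhibitors of eIF4E moved in opposite directions. Eif4ebp1 stood at 24.0, 31.9 and 32.4 CPM in mitotic cells, against 40.9, 45.4 and 46.1 CPM in noncycling cells. These groups do not overlap, and the log2 fold change was -0.67 ± 0.18 (adjusted p = 0.00265), with -0.27 ± 0.16 in Mcm5-positive cells (not called). Eif4ebp2 was higher in both classes (0.44 ± 0.12 and 0.40 ± 0.11), and Eif4enif1, an eIF4E transporter, in Mcm5-positive cells (0.49 ± 0.16), with 0.17 ± 0.18 in mitotic cells. Eif4ebp3 had 3 UMIs in NP 1 and none in NP 2 and OVA 1, where a count of 0 allows up to 0.195 and 0.149 CPM (a limit of 3 counts). Among the late factors, Eif5a, which carries the hypusine residue and helps peptide bond formation, stood at 931, 1120 and 1214 CPM in mitotic and 765, 898 and 968 CPM in Mcm5-positive cells, against 610, 720 and 704 CPM in noncycling cells. The order mitotic, Mcm5-positive, noncycling held in every library, with log2 fold changes over noncycling cells of 0.60 ± 0.07 (adjusted p = 2.46e-10) and 0.34 ± 0.06 (adjusted p = 1.49e-05). Eif6, which keeps the large subunit from joining too early, was higher in mitotic cells (0.24 ± 0.09) and had 0.20 ± 0.09 in Mcm5-positive cells.

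A direct test of mitotic against Mcm5-positive cells, which uses no noncycling cell, gave 7 of 49 members higher and 2 lower, with a background of 9.12% higher and 9.54% lower (18.7% in either direction) among 7760 genes. The 9 calls are thus at the rate of all genes. Higher in mitotic cells were Eif1b (0.56 ± 0.11), Eif2b2 (0.52 ± 0.13), Eif2ak3 (0.42 ± 0.13), Eif2a (0.38 ± 0.11), Eif4g2 (0.32 ± 0.06), Eif5a (0.28 ± 0.05) and Eif1 (0.25 ± 0.04). Lower were Eif3a (-0.23 ± 0.08) and Eif5 (-0.20 ± 0.07). Eif1ax (0.03 ± 0.09) and Eif4a3 (-0.01 ± 0.09) did not pass. Myeloid markers differed between these arms, at 0.816, 1409 and 2545 CPM in mitotic cells, against 1.19, 8.53 and 29.0 CPM in Mcm5-positive cells. This direct test was not repeated without cells of other types or without 1 library, so the part of such cells was not tested.

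Leaving out OVA 1 ended the Mcm5-positive calls of Eif1 (-0.10), Eif1ad (0.42), Eif3c (0.16), Eif3d (0.26), Eif4e (0.24), Eif4ebp2 (0.29) and Eif5b (0.23), and the mitotic calls of Eif1a (0.43), Eif2b2 (0.37), Eif2b5 (0.34), Eif3j1 (0.29) and Eif6 (0.24), beside that of Eif3e (-0.11). Leaving out NP 1 ended those of Eif3d (0.23), Eif3i (0.19), Eif3j1 (0.23), Eif4enif1 (0.26) and Eif5b (0.23) in Mcm5-positive cells, and of Eif1b (0.29), Eif2b2 (0.31), Eif2b5 (0.31), Eif3j1 (0.26), Eif4a1 (0.21), Eif5b (0.15) and Eif6 (0.22) in mitotic cells; without NP 2, Eif3c (0.19) and Eif3d (0.25) were lost in the first and Eif1a (0.31), Eif2b5 (0.41) and Eif6 (0.25) in the second. In a second random thinning Eif4e (0.03), Eif4ebp2 (0.25), Eif4enif1 (0.21), Eif4g2 (0.14) and Eif1 (-0.11) were no longer called in Mcm5-positive cells, nor were Eif4ebp2 (0.17) and Eif1a (0.32) in mitotic cells. The calls of Eif1ax, Eif2s1, Eif3f, Eif3l, Eif4a3, Eif4h and Eif5a held in both comparisons without any 1 library and without cells of other types. Memory and naive B cell markers summed to 67.8, 102 and 161 CPM in mitotic and 162, 154 and 243 CPM in Mcm5-positive cells, against 424, 497 and 568 CPM in noncycling cells. Germinal center B cell markers summed to 3381, 3347 and 3613 CPM in mitotic and 3819, 4131 and 4105 CPM in Mcm5-positive cells. They too were higher in noncycling cells, at 4703, 5036 and 4739 CPM. Myeloid markers summed to 0.816, 1409 and 2545 CPM in mitotic and 1.19, 8.53 and 29.0 CPM in Mcm5-positive cells, against 111, 1321 and 2757 CPM in noncycling cells. Plasma cell markers (Sdc1, Jchain, Prdm1 and Xbp1) summed to 967, 1177 and 820 CPM in mitotic and 808, 950 and 710 CPM in Mcm5-positive cells, against 756, 797 and 536 CPM in noncycling cells. Prdm1 had no UMI in mitotic cells of NP 1, and Sdc1 had none in those of NP 2 and OVA 1. Both had none in Mcm5-positive cells of NP 2 and OVA 1 and in noncycling cells of NP 2. These sums therefore do not show more plasma cells in the cycling classes. The part of memory, naive and plasma cells in these results was not tested.

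Of 20 tested partners without an Eif symbol, 2 were higher and 2 lower in mitotic cells, and 3 were higher and 4 lower in Mcm5-positive cells. Of all genes, 20.7% were higher and 19.8% lower in mitotic cells, and 17.3% and 13.8% in Mcm5-positive cells. The partner counts are thus below the background in mitotic cells and near it in Mcm5-positive cells. The same background applies to the elongation and termination genes, and the genes named here are called ones. Pdcd4, an inhibitor of the eIF4A helicase, stood at 4.97, 10.6 and 5.23 CPM in mitotic and 3.61, 14.4 and 13.9 CPM in Mcm5-positive cells, against 28.4, 40.3 and 49.1 CPM in noncycling cells. Both classes lay below every noncycling library, and the log2 fold changes were -2.60 ± 0.28 and -1.99 ± 0.24. Bzw1 (0.38 and 0.34) and Bzw2 (0.31 and 0.45), mimics of eIF5, were higher in both, and Mknk1, a kinase of eIF4E, was lower in mitotic cells (-1.32 ± 0.32). Of 8 tested elongation and termination genes, the release factors Gspt1 (0.98 ± 0.14 and 0.83 ± 0.13) and Etf1 (0.39 ± 0.12 and 0.46 ± 0.10) were higher in both classes, and the elongation factor Eef1a1 was lower in mitotic cells (-0.21 ± 0.07).

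Myc-positive cells showed few initiation factors that stood apart. The class is set by at least 1 Myc UMI, and whether its cells were recently selected by T cell help was not tested. The class held 132, 88 and 215 cells, against 2206, 1514 and 1939 Myc-undetected cells, and it overlapped the other classes, with 39, 30 and 78 of its cells noncycling. Of 50 members tested, 2 were higher and 1 lower, with a background of 1.53% higher and 0.87% lower (2.39% in either direction) among 8852 genes. The median log2 fold change was 0.02, and -0.02 over all genes.

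Eif4a1 stood at 728, 663 and 579 CPM in Myc-positive cells, against 494, 529 and 513 CPM in Myc-undetected cells of NP 1, NP 2 and OVA 1. The groups do not overlap and the gap was widest in NP 1, with a log2 fold change of 0.34 ± 0.08 (adjusted p = 0.00223). Eif5a stood at 1163, 985 and 897 CPM, against 728, 861 and 881 CPM, with 0.29 ± 0.07 (adjusted p = 0.00209). Here NP 1 carried most of the difference and OVA 1 almost none. Eif2ak3 stood at 76.5, 55.2 and 28.3 CPM, against 88.0, 70.6 and 81.1 CPM, with -0.72 ± 0.21 (adjusted p = 0.0332). It was lower in each library and by far the most in OVA 1, while the NP groups overlap.

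These calls depended on single libraries. Without NP 1 the log2 fold change of Eif4a1 was 0.22 and that of Eif5a 0.08, neither called, and without OVA 1 that of Eif2ak3 was -0.28; without NP 2 it was -0.82 and also not called. Eif2ak3 was not called after removal of cells of other types (-0.59) or in a second random thinning (-0.61). Memory and naive B cell markers summed to 476, 327 and 612 CPM in Myc-positive cells, against 221, 264 and 354 CPM in Myc-undetected cells. When cells with such markers were left out, Eif4a1 had 0.08 and Eif5a 0.16, and no member was called. This removed 70 of 132, 40 of 88 and 150 of 215 Myc-positive cells. It also removed 641 of 2206, 567 of 1514 and 1030 of 1939 Myc-undetected cells. Of all genes 0.25% were then called, against 2.39% before. Whether the calls were lost through these cells or through fewer cells was not tested. Myeloid markers were at 3.03, 0 and 27.9 CPM in Myc-positive cells, against 31.7, 759 and 1670 CPM in Myc-undetected cells. Germinal center B cell markers were at 3097, 4182 and 4208 CPM, against 4109, 4319 and 4356 CPM.

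Among members with a fixed role that did not pass, Eif4g1 had 0.29 ± 0.15, Eif4e 0.19 ± 0.18, Eif2s1 0.23 ± 0.13 and Eif3a 0.19 ± 0.11. The groups of Eif4g1 do not overlap, at 165, 138 and 138 CPM in Myc-positive cells, against 129, 119 and 112 CPM in Myc-undetected cells. Eif4ebp1 had -0.09 ± 0.26 and Eif2b5 -0.23 ± 0.23. Of the partners, Ppp1r15a, the stress-induced subunit of the eIF2 phosphatase, was higher at 39.8, 50.6 and 126 CPM, against 18.9, 31.3 and 71.5 CPM. Its level differed widely between libraries, so that the groups overlap, and it was higher in each library with 0.84 ± 0.21 (adjusted p = 0.00597). It was the partner called of 20, and none of 8 elongation and termination genes was called.

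**Figure D3:**
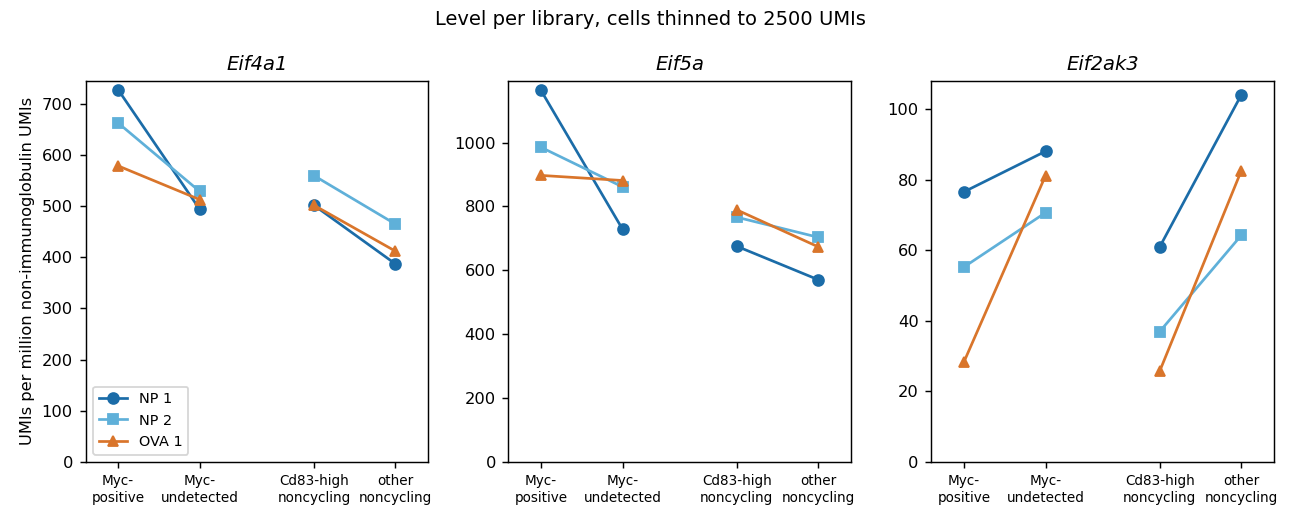
Levels of Eif4a1, Eif5a and Eif2ak3 in CPM (vertical axes from 0) in Myc-positive and Myc-undetected cells, and in Cd83-high and other noncycling cells, with 1 line per library. The lines of Eif4a1 slope down to the right and those of Eif2ak3 slope up in all 3 libraries, and OVA 1 has the lowest Eif2ak3 values, 28.3 and 25.7 CPM, in the left class of each pair.

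The same 3 genes were called within noncycling cells, where the Cd83-high class held 240, 132 and 221 cells, against 374, 341 and 581 other noncycling cells. The 2 comparisons share cells, since 27, 14 and 43 of the Cd83-high cells were Myc-positive. Of 48 members tested, 2 were higher and 1 lower, with a background of 2.55% higher and 1.88% lower (4.43% in either direction) among 6702 genes, and the median log2 fold change was 0.03, with 0.00 over all genes. Eif2ak3 stood at 60.9, 36.9 and 25.7 CPM in Cd83-high cells, against 104, 64.2 and 82.5 CPM in other noncycling cells. The groups do not overlap, and the log2 fold change was -1.04 ± 0.20 (adjusted p = 0.000113).

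The Eif2ak3 call held without each library in turn (-0.77 without OVA 1, -1.31 without NP 1 and -1.10 without NP 2), without cells of other types (-1.12) and in a second thinning (-0.82), but not without cells bearing memory or naive markers (-0.88, adjusted p = 0.13). Eif4a1 stood at 502, 560 and 502 CPM in Cd83-high cells, against 387, 465 and 412 CPM in other noncycling cells. Without overlap, it had a log2 fold change of 0.33 ± 0.08 (adjusted p = 0.00259), which was not called without NP 1 (0.29), in a second thinning (0.18), at 4000 UMIs per cell (0.15) or without cells bearing memory or naive markers (0.18). Eif5a stood at 675, 766 and 789 CPM, against 570, 703 and 673 CPM, which overlap. Its log2 fold change of 0.22 ± 0.06 (adjusted p = 0.0242) was not called without NP 1 (0.20), OVA 1 (0.20) or cells of other types (0.19), and it turned to -0.05 without cells bearing memory or naive markers.

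Those markers summed to 522, 576 and 693 CPM in Cd83-high cells, against 361, 467 and 520 CPM in other noncycling cells. Leaving out cells bearing them removed 143 of 240, 91 of 132 and 186 of 221 Cd83-high cells. It also removed 150 of 374, 170 of 341 and 356 of 581 other noncycling cells. Of all genes 2.23% were then called, against 4.43% before. Whether the calls were lost through these cells or through fewer cells was not tested. Myeloid markers summed to 0, 3.03 and 32.6 CPM in Cd83-high cells, against 182, 1831 and 3793 CPM, and T cell markers to 1.67, 6.06 and 23.5 CPM, against 26.7, 163 and 156 CPM. Eif4e (0.14 ± 0.17), Eif4g1 (0.24 ± 0.14), Eif2s1 (0.23 ± 0.13), Eif4g2 (-0.19 ± 0.10) and Eif1 (0.08 ± 0.04) did not pass. No partner and no elongation or termination gene was called, and Ppp1r15a had 0.32 ± 0.21.

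By isotype, 2 of the initiation factors passed the test, Eif4a1 and Eif4e3, a share below that of all genes. Cells that had switched to IgG or IgA numbered 905, 806 and 900, against 740, 608 and 969 cells with IgM or IgD, and all their UMIs were summed without thinning. Of 51 members tested, 1 was higher and 1 lower, with a background of 1.98% higher and 3.06% lower (5.04% in either direction) among 10256 genes. The median log2 fold change was 0.01, and 0.00 over all genes.

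Eif4a1 stood at 619, 634 and 619 CPM in switched cells, against 558, 609 and 559 CPM in IgM or IgD cells, without overlap. The log2 fold change was small, 0.11 ± 0.03 (adjusted p = 0.0441), and the call was lost without any 1 library (0.10 without NP 1, 0.15 without NP 2, 0.12 without OVA 1), without cells of other types (0.11) and without cells bearing memory or naive markers (0.05). Per isotype it stood at 589, 651 and 585 CPM in IgG1 cells, 617, 631 and 645 CPM in IgG2b cells and 634, 632 and 667 CPM in IgG2c cells, against 560, 610 and 559 CPM in IgM cells. Each of these isotypes exceeded IgM within its library. IgG3 cells had 641 and 623 CPM in NP 1 and NP 2, and the 45 IgG3 cells of OVA 1 had 523 CPM with an exact Poisson interval of 452 to 603 CPM.

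Eif4e3, a cap-binding relative of eIF4E, is sparse, with 57 UMIs in switched and 115 UMIs in IgM or IgD cells over the 3 libraries. It stood at 1.60, 3.60 and 2.0 CPM in switched cells, against 2.55, 5.75 and 7.89 CPM in IgM or IgD cells. It was lower in each library and most of all in OVA 1, although the groups overlap, with -1.22 ± 0.27 (adjusted p = 0.00663). Without OVA 1 it was -0.66, without NP 1 -1.34 and without cells bearing memory or naive markers -1.02, none of them called. Those markers summed to 170, 201 and 313 CPM in switched cells, against 218, 213 and 353 CPM in IgM or IgD cells. Within IgG1 cells it stood at 2.54, 3.55 and 2.12 CPM, against 2.58, 5.79 and 7.90 CPM in IgM cells. The OVA 1 intervals of 0.852 to 4.37 CPM and 6.14 to 9.99 CPM do not touch, but they cover counting error in 1 library only. The test of IgG1 against IgM or IgD cells over the 3 libraries called 0 members. In IgG2b cells NP 2 had 6.31 CPM, above its IgM cells, and the IgG3 cells of OVA 1 had 0 UMIs, which allows up to 8.22 CPM at 3 counts (the exact interval drawn reaches 10.1 CPM).

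**Figure D4:**
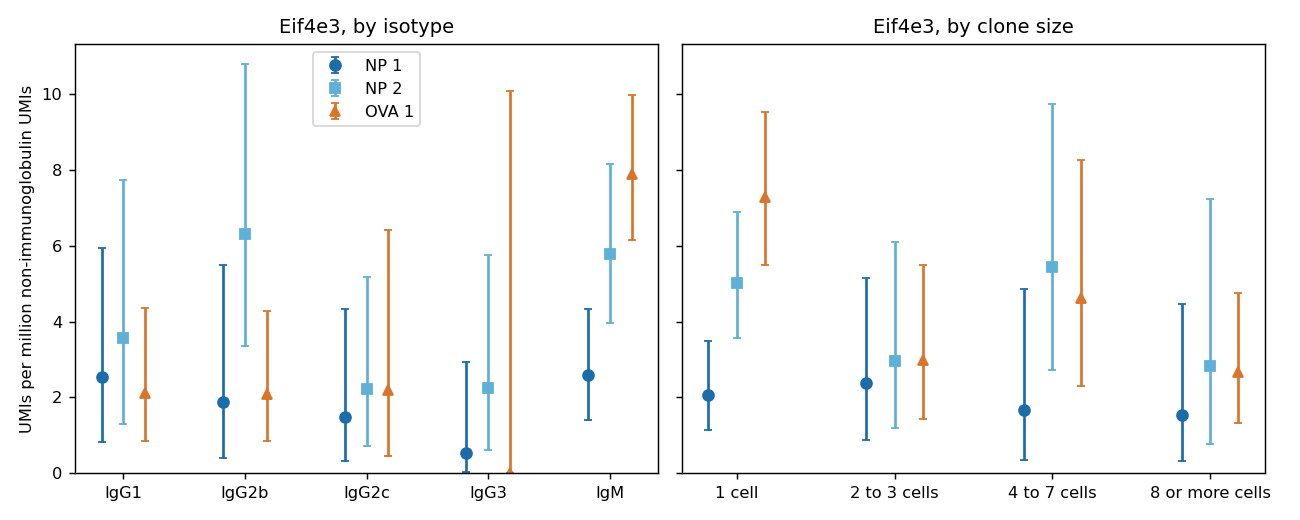
Eif4e3 in CPM (vertical axis from 0) by isotype (left) and by clone size (right) in 3 libraries, with exact 95% Poisson intervals for counting error. OVA 1 has 7.90 CPM in IgM cells and 7.30 CPM in clones seen once, above its other values, while NP 1 stays between 0.527 and 2.58 CPM.

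Members with a fixed role that did not pass included Eif5 (0.10 ± 0.04), Eif5b (0.11 ± 0.04), Eif2s1 (0.09 ± 0.04), Eif4e (0.08 ± 0.06), Eif4ebp2 (-0.14 ± 0.06) and Eif2ak3 (-0.01 ± 0.06). For Eif2ak3 the 95% interval of -0.13 to 0.11 on the log2 scale leaves out a change of the size seen in Cd83-high cells. Among the 20 partners, Ppp1r15a (0.35 ± 0.08), Mcts1, which helps ribosome recycling (0.23 ± 0.06), and Bzw2 (0.22 ± 0.04) were higher and Pdcd4 (-0.47 ± 0.12) lower. The cycle classes were close, with mitotic shares of 22.2%, 21.9% and 18.9% of thinned switched cells, against 21.7%, 21.3% and 18.1% of thinned IgM or IgD cells.

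By clone size, no member was called. A clone was a set of cells in a library with the same heavy chain V gene, J gene and CDR3 nucleotides. Cells of clones with at least 2 cells numbered 773, 603 and 1035, against 882, 812 and 836 cells seen once. Of 51 members, edgeR called 0, with 6 at an unadjusted p under 0.05, and DESeq2 also called 0, with a background by edgeR of 1.37% higher and 2.95% lower (4.32% in either direction) among 10210 genes. The median log2 fold change was 0.01, and -0.01 over all genes.

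Summed over the 52 genes, clones of 1 cell gave 1.14%, 1.19% and 1.15% of UMIs in NP 1, NP 2 and OVA 1, clones of 2 to 3 cells 1.15%, 1.18% and 1.16%, clones of 4 to 7 cells 1.18%, 1.20% and 1.15%, and clones of 8 or more cells 1.18%, 1.21% and 1.21%. The share in the size class of 8 or more cells was above that of cells seen once in each library, and the middle classes had no common order. The cycle moved with clone size: mitotic cells made up 25.3%, 25.8% and 21.6% of thinned cells of expanded clones, against 19.1%, 18.7% and 14.6% of cells seen once, and noncycling cells 23.8%, 24.1% and 33.4%, against 30.2%, 32.2% and 43.3%. Memory and naive B cell markers summed to 146, 167 and 278 CPM in expanded clones, against 232, 236 and 408 CPM in cells seen once, and without cells bearing them edgeR called 9 of 9688 genes. The part of the cycle and of these cells in the summed share was not tested.

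The widest member difference was again that of Eif4e3, at 1.91, 3.8 and 3.25 CPM in expanded clones, against 2.07, 5.03 and 7.30 CPM in cells seen once, which overlap. Its log2 fold change of -0.75 ± 0.25 missed the threshold (adjusted p = 0.0841), although it was lower in all 3 libraries. Eif4a1 (0.02 ± 0.03), Eif5a (0.02 ± 0.03) and Eif4e (0.02 ± 0.05) did not pass, and the 95% interval of Eif4a1 ran from -0.04 to 0.07 on the log2 scale. Eif5b (0.10 ± 0.04), Eif4a2 (-0.09 ± 0.04) and Eif1a (0.13 ± 0.06) had intervals that leave out 0 before adjustment. Of the partners Bzw2 was higher (0.18 ± 0.04) and Pdcd4 lower (-0.68 ± 0.13).

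Between the antigens, no member was called either. NP 1 and NP 2 differ from OVA 1 in antigen, sort gate and library, which cannot be told apart, and a single library on the OVA side leaves 1 residual degree of freedom. Of 51 members, edgeR called 0, with 1 at an unadjusted p under 0.05, and DESeq2 called 0, with a background by edgeR of 0.717% higher and 1.31% lower (2.02% in either direction) among 11858 genes. The median log2 fold change was 0.04, and 0.01 over all genes. Eif5a2, a low-level copy of Eif5a, stood at 11.4 and 10.2 CPM in NP libraries, against 5.93 CPM in OVA 1, with 0.89 ± 0.35 (adjusted p = 0.247). Eif4g2 stood at 440 and 318 CPM, against 268 CPM, and Eif4ebp2 at 118 and 80.1 CPM, against 70.1 CPM; in both genes the 2 NP libraries differed from each other by more than NP 2 differed from OVA 1. Eif4a1 stood at 564 and 611 CPM, against 567 CPM, Eif5a at 891 and 989 CPM, against 1046 CPM, and Eif2ak3 at 80.7 and 65.3 CPM, against 70.2 CPM. The 95% interval for Eif4a1 runs from -0.51 to 0.67 on the log2 scale, so a difference of this width would not be seen with these libraries.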

How the data were processed

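Single-cell 5′ gene expression and immunoglobulin libraries were used; the bulk immunoglobulin libraries were not used here. Cell Ranger and mm10 are named in the submitters' processing notes, with versions, annotation and filters not given in the sources used here. Raw UMI counts per gene and cell were deposited, not normalized by the authors. The deposited contig tables give each chain's UMI count, V, J and constant gene calls and CDR3. Total depth was 20533741, 16161435 and 21412501 UMIs in NP 1, NP 2 and OVA 1.

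Cells passed with at least 500 genes and at most 10% mitochondrial UMIs. Classes were set after thinning each cell to 2500 UMIs without replacement (numpy 2.4.6, Python 3.11.15), leaving out 262, 154 and 231 shallower cells. Each cell's isotype and clone were read from its most abundant productive heavy chain by UMIs. No doublet caller was run; cells with more than 1 productive heavy chain (43, 47 and 45) were left out as an alternative. Counts were summed per library and arm, without 226 immunoglobulin genes and the genes that define the arms, and tested with edgeR 4.0.16 (R 4.3.3; TMM, filterByExpr, quasi-likelihood test, Benjamini-Hochberg over all genes, threshold 0.05). Both arms come from the same library, so library was the block; NP against OVA had none. SE is the log2 fold change divided by the square root of F, and intervals are 1.96 SE; intervals on levels are exact 95% Poisson and cover counting error only; the limit given for a count of 0 is 3 counts. The code was tested on simulated data. Other settings numbered 69, DESeq2 1.42.0 among them, and 12 more were chosen after seeing the data (second thinning, cycling cells only, removal of cells with at least 2 UMIs of memory or naive B markers).

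The text names up to 20 called members per comparison by absolute log2 fold change, beside 20 members with a fixed role. Members, roles and pathway lists were chosen with earlier results of these data known. Promoter windows are RefSeq's for GRCm38.p6; Eif1a, Eif2b3, Eif3e, Eif3h, Eif3i, Eif3j2, Eif4e3, Eif4ebp1, Eif4ebp3, Eif4g2 and Eif6 are named only. Eif4ebp3 was tested in no comparison, Eif3j2 in none of the class comparisons, Eif4e3 in only 1 of these and Eif5a2 in all but the Cd83 comparison.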

Additional observations from a re-analysis of the deposited data

How the results depend on the processing

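DESeq2 called 0 members for Myc, 0 for Cd83, 9 in Mcm5-positive cells, 9 in mitotic cells and 0 for switched cells, where edgeR called 3, 3, 23, 24 and 2. Without the library as a replicate block the pairing of arms was ignored and edgeR called 0, 0, 5, 8 and 0. Of all genes, DESeq2 then called 12.7% and 18.5% and edgeR without the block 10.48% and 19.6% in Mcm5-positive and mitotic cells, so that 9 and 9, and 5 and 8, of 49 members are not above this background except for DESeq2 in Mcm5-positive cells. Leaving out 1 library gave 1 to 2, 1 to 3, 16 to 22, 18 to 21 and 0 to 1 calls, and 0 to 0 by clone size; between NP and OVA it left 1 library a side and no test. Chosen after seeing the data, removal of cells with memory or naive B markers gave 0 calls for Myc, Cd83 and switched cells. Of all genes, 0.25%, 2.23% and 1.59% were then called, with fewer cells in each arm. For Myc, the stricter cell filter and noncycling cells only gave 0, cycling cells only 1 and all UMIs 6. For switched cells, thinning, noncycling cells only, cycling cells only and IgG1 only gave 0, and removal of other cell types or 2 heavy chains gave 1. By clone size no count filter gave 1 and that removal 1. Mitotic against Mcm5-positive cells is a comparison with another reference arm, not a change of processing. It gave 9 of 49, with 18.7% of all genes called. There Eif2s1 (-0.10), Eif3a (-0.23), Eif3b (-0.13), Eif3j1 (-0.083), Eif4a1 (-0.080) and Eif4a3 (-0.0090) had negative values. Over noncycling cells these genes had positive values in both classes, the larger in Mcm5-positive cells. Eif5a for Cd83 turned to -0.049 without memory or naive cells, and the cause of that change was not tested. RLE scaling gave 23 mitotic calls in place of 24 and left the other counts as they were. Over all settings 5 of 23 Mcm5-positive and 2 of 24 mitotic calls held. The mitotic settings include the comparison against Mcm5-positive cells, so these counts are not alike. With that comparison, DESeq2 and the fit without the block set aside, 11 of 23 Mcm5-positive and 13 of 24 mitotic calls held. Members under about 10 CPM (Eif4e3, Eif5a2, Eif3j2) are limited by depth.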
